A study of Mus musculus with 3 samples.

Results

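The carbonic anhydrase genes of the mouse were followed here in maps of open chromatin of embryonic liver. The 10 genes Car1, Car2, Car3, Car13, Car4, Car5b, Car8, Car9, Car12 and Car14 were taken by symbol from the GENCODE annotation, out of 21851 protein-coding genes. Open sites were read within each gene and 50 kb on either side. The samples were livers of mouse embryos at 13.5 days, of the strain C57BL/6N,129, described as wild type and carrying the yeast artificial chromosome A20 in single copy, which all samples share. They were profiled by DNase-seq, which sequences the ends left where the enzyme DNase I has cut exposed DNA. There were 3 libraries, numbered as biological replicates 1, 2 and 3, and no second tissue, genotype or treatment. Each value is therefore shown for every library, with the mean and SD of the 3, and no groups were tested against each other. The labels name a separate biosample for each library but 1 donor for all, so the spread between libraries may be partly technical. Positions are in build mm10.

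Carbonic anhydrases catalyse the exchange of carbon dioxide and water with bicarbonate and a proton. In red cells the cytosolic enzymes turn carbon dioxide from the tissues into bicarbonate, which the exchanger band 3 carries out into the plasma, and the reverse occurs in the lung. The fetal liver is the main site where red cells are made before birth, and its other cells include hepatoblasts, macrophages, vessel cells and stroma. Other members of the family sit in mitochondria or at the cell surface, and Car8 lacks the catalytic activity.

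The libraries differed widely in the number of open sites that the authors listed. Replicates 1, 2 and 3 had 34369, 122281 and 60862 peaks and 89836, 342756 and 156638 footprints. A peak is a stretch of raised cutting, and a footprint is a short stretch inside accessible DNA where cutting is reduced, as under a bound protein. Read totals were not used here, so depth is unknown, and the lack of a listed peak does not show that a site was closed. The label of the tissue was checked by promoters of marker genes. All 3 libraries had a promoter peak at 7 of 8 erythroid, 3 of 7 hepatoblast, 1 of 5 macrophage, 1 of 4 endothelial and 2 of 4 mesenchymal markers, where 51.4% of all protein-coding genes had one. By this count the erythroid share alone of these lists lay above that of all genes. Read singly, replicates 2 and 3 each had a peak at 6 of 7 hepatoblast markers, against 67.3% and 56.4% of all genes. Mesenchymal markers had 4 of 4 in replicate 2 and 2 of 4 in replicate 3. None of the 4 neural, 4 muscle, 3 intestinal or 3 adipocyte markers had a peak in all 3. In replicate 2, 3 neural, 2 muscle and 2 intestinal markers had a promoter peak, against 67.3% of all genes in that library. In whole tissue, a site open in few cells and a site weakly open in many cells cannot be told apart.

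At their promoters, the carbonic anhydrase genes ran from well above the middle of all genes to no listed site at all. The promoter window reached 1000 bp up- and downstream of the transcription start site (TSS) of each protein-coding transcript. Of the 10 genes, replicates 1, 2 and 3 listed a promoter peak for 5, 8 and 6, where 54%, 67.3% and 56.4% of all protein-coding genes had one. Car1, Car2, Car13, Car5b and Car12 had a peak in all 3 libraries, 5 of 10 against 51.4% of all genes, so as a family they were near the background. On the shorter of the 2 peak lists that the authors deposited per library, this held for Car2, Car13 and Car5b, 3 of 10 against 46.7% of all genes, and not for Car1 and Car12. Car3 and Car4 had none in any library, 2 of 10 against 32.1% of all genes. Signal was compared between libraries as a percentile, the share of protein-coding genes that scored lower, because the authors' signal scale differs by library and genes without a peak stand at 0. The median percentile of the 10 genes was 23.3, 43.7 and 48.5 in the libraries in turn and averaged 38.5 ± 13.4 (SD, n = 3), against 49.9 over all genes. In replicate 1 the 5 genes without a peak stood at 0 and the next, Car1, at 46.6, so 23.3 is only their midpoint. The median thus turns on how many genes had a peak, and does not show weaker signal across the family.

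**Figure D1:**
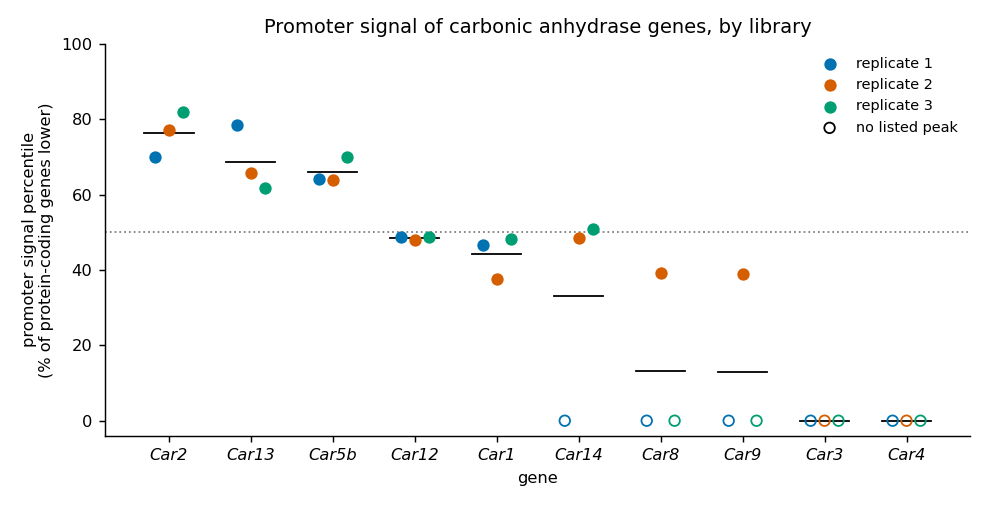
Promoter signal percentile (vertical axis, share of protein-coding genes that scored lower) of the 10 genes, ordered by mean; points are the 3 libraries, bars their mean, open points stand for no listed peak, and the dotted line marks the middle. Car2, Car13 and Car5b lie above the line in every library, and Car3 and Car4 have no peak in any.

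Among the 4 cytosolic enzymes of the chromosome 3 locus, Car2 had the highest mean promoter percentile and Car3 had no promoter peak. Car2, the highly active cytosolic enzyme of red cells, kidney and osteoclasts (chr3:14886273-14900770, plus strand), gave 2.68, 8.92 and 7.50 as the promoter signal of replicates 1, 2 and 3. Its percentiles were 70.0, 77.1 and 81.8, a mean of 76.3 ± 5.95 (SD, n = 3). Car13, a further cytosolic enzyme (chr3:14641727-14663002, plus strand), had signals of 3.65, 4.91 and 2.07 and percentiles of 78.6, 65.7 and 61.7, a mean of 68.7 ± 8.83 (SD, n = 3). The order of the pair turned in replicate 1, where Car13 was the higher, and their means lay within the spread between libraries. Ranked by the lowest false discovery rate in the window in place of signal, Car13 was also the higher, at 71.3, with Car2 at 65.0. Car1, an abundant protein of mature red cells (chr3:14766216-14808368, minus strand), had a weak peak in each library, with signals of 0.414, 0.340 and 0.471. Its percentiles of 46.6, 37.7 and 48.3 gave a mean of 44.2 ± 5.68 (SD, n = 3), below every percentile of Car2 and Car13. With equal numbers of the strongest peaks of each library the mean of Car1 was 15.5. Car3, an enzyme of low activity that is abundant in muscle and fat (chr3:14863512-14872523, plus strand), had no promoter peak. The nearest position listed at a false discovery rate of at most 0.05 lay 6374, 6315 and 6339 bp from its TSS in replicates 1, 2 and 3.

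Car1 has a pair of annotated promoters, and the listed sites lay at the upstream of the pair. In human CA1, the distant upstream promoter is used in red cells and the promoter next to the coding sequence in colon. The region found in all 3 libraries lay at the upstream TSS, at 14808365. At the downstream TSS, at 14778459, no position was listed within 1000 bp, and the nearest lay 29936, 29897 and 13667 bp away in replicates 1, 2 and 3. The upstream window held 8 CpG sites, more than in 6.51% of protein-coding genes, and the Car2 window held 107, more than in 78.8%. The lowest false discovery rate listed in the upstream window was 0.00704, 0.000219 and 1.01e-05 in replicates 1, 2 and 3.

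Of the mitochondrial and membrane enzymes, Car5b had a promoter peak in every library and Car4 in none. Car5b, a mitochondrial enzyme (chrX:163976822-164027997, minus strand), had promoter signals of 2.04, 4.34 and 3.86 and a mean percentile of 66.1 ± 3.46 (SD, n = 3). This mean lay within the spread of that of Car13. Car12, a membrane enzyme with its active site outside the cell (chr9:66713686-66766845, plus strand), had signals of 0.605, 0.816 and 0.498. Its percentiles of 48.9, 48.1 and 48.8 varied less than those of any other gene of the family with a peak, with a mean of 48.6 ± 0.420 (SD, n = 3). Weak promoter peaks rank just above the many genes without a peak, so this narrow spread does not show a steady site. Among the peaks of replicates 1, 2 and 3 the same region stood at percentiles of 16.0, 73.4 and 32.7. Car12 stood above Car1 in signal percentile in each of the 3 libraries, a difference that was not tested. By the lowest false discovery rate in the window the order turned in replicates 1 and 3. There Car1 had 0.00704 and 1.01e-05 and Car12 0.0121 and 2.77e-05. In replicate 2 Car12 had the lower value, 1.58e-07 against 0.000219. Car14, another membrane enzyme (chr3:95897768-95904691, minus strand), lacked a peak in replicate 1. In replicates 2 and 3 its signals were 0.840 and 0.623, at percentiles of 48.4 and 50.9. Car9, a membrane enzyme induced by low oxygen in many tumours (chr4:43506966-43513729, plus strand), had a promoter peak in replicate 2 alone, with a signal of 0.375. Car8, the inactive relative known from Purkinje cells of the cerebellum (chr4:8143362-8239041, minus strand), likewise had a peak in replicate 2 alone, with a signal of 0.389. Replicate 2 listed the most peaks, and what its depth contributes to these weak sites was not tested. Car4, which is anchored to the outer membrane surface by a lipid (chr11:84957786-84966044, plus strand), had no promoter peak although its window holds 87 CpG sites, a CpG percentile of 66.4. The nearest listed position lay 13556, 1432 and 13572 bp from its TSS.

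Car13, Car1, Car3 and Car2 lie next to each other on chromosome 3 and were read as 1 locus. With 50 kb on either side it spans chr3:14591727-14950770, 359 kb. Replicates 1, 2 and 3 had 7, 17 and 14 peaks in it, a mean of 12.7 ± 5.13 (SD, n = 3). Merged where they overlapped by at least 1 bp, these gave 20 regions, of which 6 were found in all 3 libraries, 6 in 2 and 8 in 1. Without replicate 1, which had the fewest peaks, 11 regions were found in both remaining libraries. The 6 shared regions amount to 1.67 per 100 kb, against 0.953 per 100 kb over the chromosomes and a median of 1.98 per 100 kb over protein-coding genes with 50 kb on either side. The locus was thus denser than the chromosomes as a whole and sparser than the median gene window. Of the 6 shared regions, 4 lay at promoters, namely those of Car13, Car1, Car2 and the neighbour 1810022K09Rik. The other 2 had their middle in an intron of Car3 and between Car3 and Car2. Such regions were placed by their middle alone, so part of the region named for the Car3 intron may lie in an exon. The strongest site of the locus belonged to no carbonic anhydrase: the promoter of 1810022K09Rik (chr3:14611261-14611520) stood at percentiles of 97.5, 99.7 and 99.2 among the peaks of replicates 1, 2 and 3. Its signal was 2.49, 2.84 and 2.61 times that of the Car2 promoter.

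The open sites of the locus were gathered at its Car3 and Car2 end. A stretch of 20.3 kb, from chr3:14869901-14890220, held 11 of the 20 regions, or 55%, in 5.66% of the length. Its ends were set at the outer edges of listed regions, so the contrast is in part built in and was not tested. Of the 11, 3 were found in all 3 libraries, 6 in 2 and 2 in 1. The locus had 6 regions of all 3 libraries, so 3 of these 6 lay in the stretch. Between the promoters of Car13 and Car1 there were 166.6 kb without a region found in more than 1 library, and 3 regions found in 1. Between the Car1 promoter and the Car3 intron there were 61.3 kb with 1 such region. From the Car3 intron to the next shared region the gap was 8.88 kb, and from there to the Car2 promoter 7.24 kb.

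**Figure D2:**
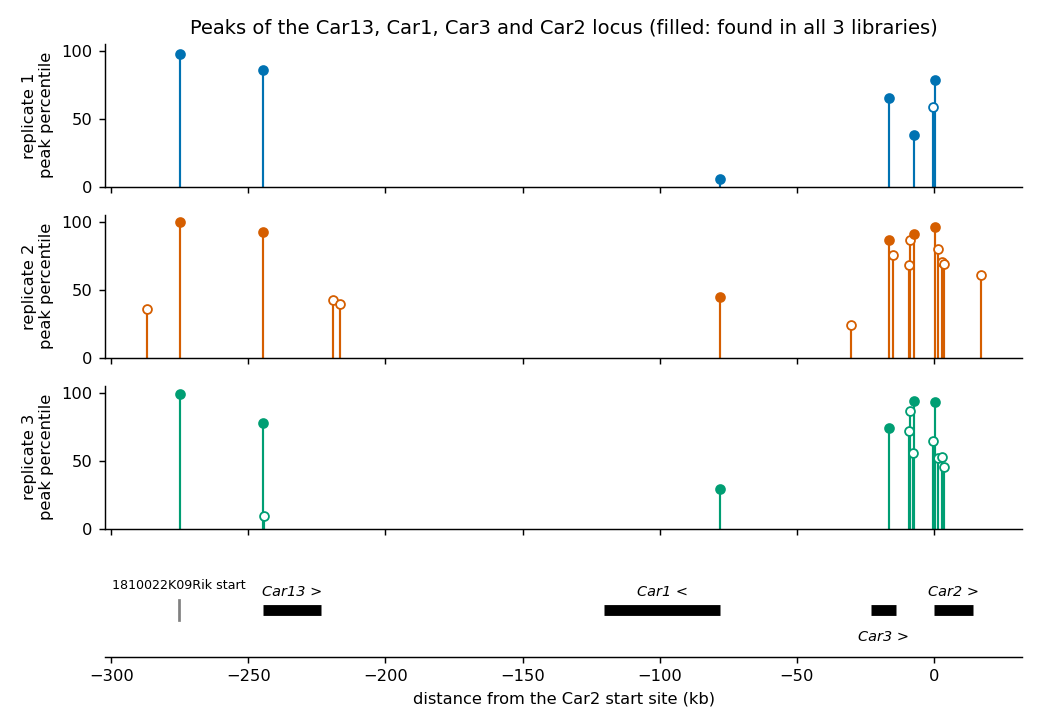
Peaks of each library over the chromosome 3 locus; the horizontal axis gives the distance from the Car2 start site in kb, the vertical axis the percentile of the peak among all peaks of that library, filled points are regions found in all 3 libraries, and black bars are genes with the direction of reading. Sites gather at Car3 and Car2 on the right, and the interval from Car13 to Car1 holds only sites of 1 library.

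Between Car3 and Car2, a site upstream of Car2 had about the signal of its promoter in replicate 3 and less than it in replicates 1 and 2. The region at chr3:14879001-14879240, whose middle is 7307 bp upstream of the Car2 TSS, had signals of 0.940, 3.53 and 8.03 in replicates 1, 2 and 3. It stood at percentiles of 38.2, 90.8 and 93.5 among the peaks of the library. Its signal was 0.351, 0.396 and 1.07 times that of the Car2 promoter. A neighbouring region at chr3:14877701-14877920, 8617 bp upstream of the TSS, was not listed in replicate 1, and its signals were 2.05 and 4.11 in replicates 2 and 3. Its ratios to the promoter were 0.230 and 0.547. A weaker region at chr3:14877298-14877520 had signals of 0.653 and 1.51 in replicates 2 and 3 and no listed position in replicate 1. In each of these 3 regions the signal relative to the promoter was higher in replicate 3 than in replicate 2.

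The Car3 intron site behaved otherwise across the libraries. The region at chr3:14869901-14870120, 6473 bp downstream of the Car3 TSS, had signals of 1.71, 2.09 and 1.70 in replicates 1, 2 and 3, at percentiles of 65.4, 86.9 and 74.3. Relative to the Car2 promoter it stood at 0.640, 0.234 and 0.227. The Car13 promoter had the same order, with ratios of 1.36, 0.550 and 0.276. Both were highest relative to Car2 in replicate 1, and so was the Car1 promoter, at 0.155, 0.0382 and 0.0627. All these ratios divide by the Car2 promoter, whose own signal was lowest in replicate 1, at 2.68 against 8.92 and 7.50. The promoter of 1810022K09Rik was lowest there, at 2.49 against 2.84 and 2.61. So was the region 7307 bp upstream of Car2, at 0.351, though with 0.396 in replicate 2 close by. These differences were not tested.

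Inside and around Car2, open sites extended past the promoter into the gene. The main promoter region at chr3:14886481-14886780 stood at percentiles of 78.4, 95.8 and 92.9 among the peaks of replicates 1, 2 and 3. A second region just upstream, at chr3:14886101-14886360, had signals of 1.43 and 1.06 in replicates 1 and 3 and no peak in replicate 2. In replicate 2, however, all 260 bases of that region were listed, with a lowest false discovery rate of 5.51e-19, and it held 5 footprints, although neither peak list has a peak there. Downstream, the regions at chr3:14887721-14888040, chr3:14889124-14889376 and chr3:14889901-14890220 were found in replicates 2 and 3. Their signals ran from 0.670 to 1.14 in replicate 2 and from 0.637 to 0.755 in replicate 3, and no position was listed there in replicate 1.

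**Figure D3:**
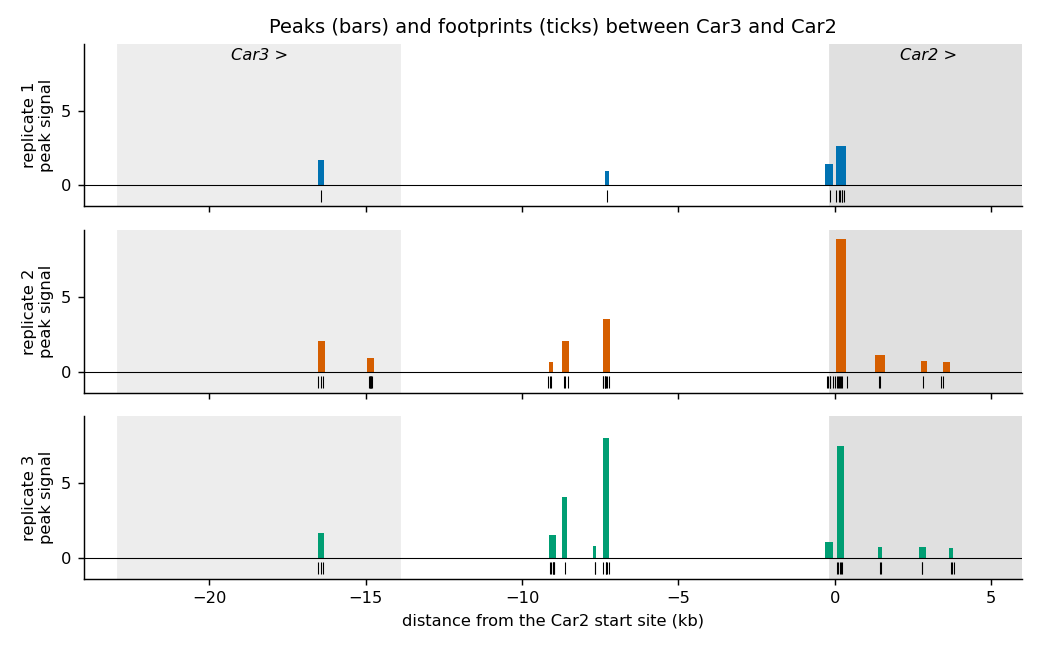
Peak signal as deposited (vertical axis, scaled per library by the authors) and footprints (ticks under the zero line) from Car3 to Car2; the horizontal axis is the distance from the Car2 start site in kb, and shading marks the genes. The peak 7307 bp upstream of the start is 0.940, 3.53 and 8.03 high in replicates 1, 2 and 3, beside promoter peaks of 2.68, 8.92 and 7.50.

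Footprints of the locus numbered 22, 67 and 42 in replicates 1, 2 and 3, on average 43.7 ± 22.5 (SD, n = 3). Merged where they overlapped by at least 1 bp, they gave 12 that took in all 3 libraries, here called shared. Merging can join footprints of different libraries through that of another library, so those within a shared footprint need not all overlap each other. Without replicate 1, 25 overlapped in the remaining pair. The Car13 promoter held 4 of these shared footprints, the Car2 promoter region 2, the Car3 intron 1 and the promoter of 1810022K09Rik the other 5. The Car1 promoter held 1, 1 and 0 footprints and none was shared. The sequences below carry these sites and are those of the C57BL/6J reference, 5′ to 3′ on the plus strand. Capitals mark bases inside footprints of at least 2 libraries. Bases downstream of the annotated TSS are left out at promoters other than that of Car2. For Car2 only the footprint of replicate 2 that holds its TATA box is shown, which lies downstream of the annotated TSS.
Car13 promoter, chr3:14641556-14641726: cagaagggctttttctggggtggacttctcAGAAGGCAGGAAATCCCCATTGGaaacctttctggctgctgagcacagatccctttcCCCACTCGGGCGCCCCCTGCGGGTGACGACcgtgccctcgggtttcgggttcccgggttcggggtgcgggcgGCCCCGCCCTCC
Car3 intron, chr3:14869886-14870135: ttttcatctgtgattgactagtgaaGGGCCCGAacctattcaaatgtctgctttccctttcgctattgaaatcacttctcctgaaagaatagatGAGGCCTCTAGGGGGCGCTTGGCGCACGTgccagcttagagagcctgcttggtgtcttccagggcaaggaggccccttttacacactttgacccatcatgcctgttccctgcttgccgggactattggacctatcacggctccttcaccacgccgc
Upstream of Car2, distant, chr3:14877686-14877935: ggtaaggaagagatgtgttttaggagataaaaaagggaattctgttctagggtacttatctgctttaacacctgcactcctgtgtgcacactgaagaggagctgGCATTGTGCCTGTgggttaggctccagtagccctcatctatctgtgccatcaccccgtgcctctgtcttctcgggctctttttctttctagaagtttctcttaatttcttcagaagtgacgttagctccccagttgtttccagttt
Upstream of Car2, near, chr3:14878996-14879245: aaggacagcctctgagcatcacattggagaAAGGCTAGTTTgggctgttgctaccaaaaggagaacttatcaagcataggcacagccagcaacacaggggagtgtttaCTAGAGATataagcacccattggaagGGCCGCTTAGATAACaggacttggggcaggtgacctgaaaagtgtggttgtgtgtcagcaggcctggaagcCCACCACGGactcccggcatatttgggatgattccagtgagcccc
Car2 promoter footprint, chr3:14886653-14886679: GCGGGAGCCTATAAAAGCCGGACGGTG
Car1 promoter, chr3:14808366-14808615: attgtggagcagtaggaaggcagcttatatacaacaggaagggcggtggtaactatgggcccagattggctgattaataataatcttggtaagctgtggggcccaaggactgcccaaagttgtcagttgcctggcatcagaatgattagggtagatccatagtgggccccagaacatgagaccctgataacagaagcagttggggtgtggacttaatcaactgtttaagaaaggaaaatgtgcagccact

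The widest shared footprints of these sequences lay over the same 9 letters at Car13 and Car3. AGGGGGCGC is the core of the sequence known to bind CTCF, a protein of chromatin loops and boundaries, and was searched for after the sequences had been seen. At the Car13 promoter it lay on the minus strand, 75 bp upstream of the TSS, at chr3:14641652-14641660, and in the Car3 intron on the plus strand at chr3:14869989-14869997. Each match lay wholly inside a footprint in all 3 libraries. The footprints were 32, 30 and 33 bp wide at Car13 and 32, 30 and 29 bp at Car3 in replicates 1, 2 and 3, against a median of 10 bp over all footprints of each library. At Car13 96.8%, 94.1% and 95.8% of the footprints of the library were narrower, and at Car3 96.8%, 94.1% and 93.4%. In windows of 250 bp, the letters were found in 2.73% of 14947 promoter regions and 6.14% of 11025 other regions shared by the libraries.

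GATA sequences were found in each of the 3 sites shown away from promoters and, of the 5 promoters searched, at that of Car1 alone. The words AGATAA (with the variant TGATAA) and AGATAG (with the variant TGATAG), searched on both strands, are those bound by factors such as GATA1, the main regulator of red cell genes. At least 1 of them occurs in 35.5% of shared regions away from promoters and in 13.0% of shared promoter regions, so that a match on its own is common. The distant region upstream of Car2 lacked a peak in replicate 1 and is not among those shared regions. In the near region upstream of Car2, AGATAA at chr3:14879138-14879143, 7290 bp upstream of the TSS, lay wholly inside a footprint of 16 bp in replicate 2 and of 15 bp in replicate 3. No footprint of replicate 1 covered it, and that library had 1 footprint in the region against 7 in replicate 2 and 5 in replicate 3. A TGATAA of the same region, on the minus strand, lay outside all footprints. The distant region upstream of Car2 held AGATAA at 2 places and AGATAG at 1, none in a footprint. The region named for the Car3 intron held 1 TGATAG outside footprints. It lay near the right end of that region, at chr3:14870110-14870115, and was not placed as intron or exon. At the Car1 promoter, TGATAA lay 190 bp upstream of the TSS, at chr3:14808550-14808555, with no footprint over it. The words for a TAL1 site beside a GATA site, CTG followed by AGATAA after 7 or 8 bases, were found in none of the 8 regions described by sequence, among them Car12 and Car5b. They occur in 0.482% of shared promoter regions and 3.21% of other shared regions. With so few regions shown, their absence is the usual case.

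At the Car2 promoter a TATA box lay inside footprints of replicates 2 and 3, downstream of the annotated start. TATAAA, the classic box that places the start of transcription, was at chr3:14886662-14886667, 234 bp downstream of the annotated coding TSS at 14886428, and occurs in 2.78% of shared promoter regions. Footprints of 27 and 26 bp covered it in replicates 2 and 3, wider than 91.9% and 90.5% of the footprints of those libraries. In replicate 1 a footprint of 10 bp ended at its first base and another, of 11 bp, began past its end, so the rest of the box lay between footprints.

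**Figure D4:**
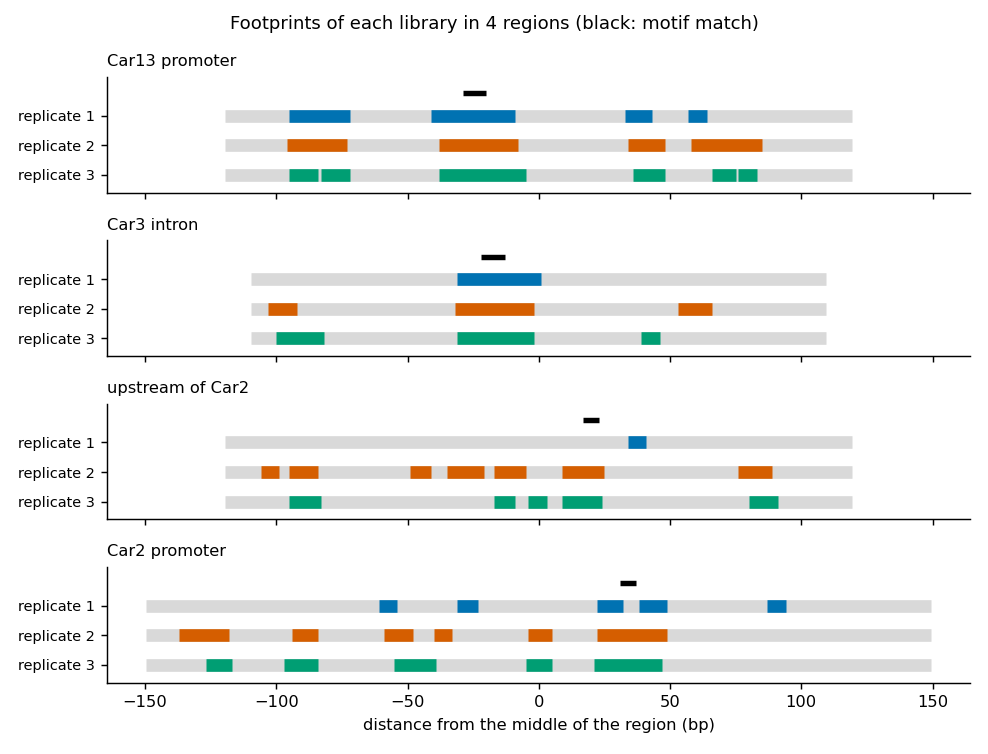
Footprints of each library (coloured) in 4 regions of the locus (grey); the horizontal axis is the distance in bp from the middle of the region, and black marks the match to the CTCF core at Car13 and Car3, to AGATAA upstream of Car2 and to TATAAA at the Car2 promoter. The Car13 and Car3 matches lie in wide footprints of all 3 libraries, whereas AGATAA lies in footprints of replicates 2 and 3.

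The Car5b promoter, which had the highest mean percentile of the 6 listed genes outside the chromosome 3 locus, carried 3 footprints shared by all libraries and several GC-rich words. Its region at chrX:164027981-164028180 held 6, 4 and 3 footprints in replicates 1, 2 and 3. Because Car5b is read on the minus strand, its TSS lies just before the left end of the sequence, which is shown for the GC boxes inside its footprints.
Car5b promoter, chrX:164027998-164028205: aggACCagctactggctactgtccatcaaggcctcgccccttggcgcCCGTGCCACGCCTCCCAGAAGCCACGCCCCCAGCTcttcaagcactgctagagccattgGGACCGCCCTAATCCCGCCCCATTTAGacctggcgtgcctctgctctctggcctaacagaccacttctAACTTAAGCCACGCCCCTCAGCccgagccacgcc

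Here GGGCGG, the box of SP factors, was found on the minus strand 115 bp and 126 bp upstream of the TSS. The nearer match lay wholly inside footprints of all 3 libraries. CCNCNCCC, the pattern of KLF factors such as KLF1, where N is any base, was found 3 times upstream of the TSS. The match at 76 bp lay wholly inside footprints of all 3 libraries, that at 190 bp inside footprints of 2, and that at 39 bp in none. At the Car13 promoter both words lay in overlapping positions, 9 and 11 bp upstream of its TSS, inside footprints of at least 2 libraries. A further CCNCNCCC there, 23 bp upstream, lay in no footprint, and further GGGCGG matches 17 bp upstream and 8 bp downstream lay partly in footprints. They are common, with GGGCGG in 64.5% and CCNCNCCC in 66.3% of shared promoter regions. The Car12 promoter region at chr9:66713541-66713800 held 3, 4 and 3 footprints, of which none was shared by all 3 libraries.

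Around the genes, each of the 10 had at least 1 region of all 3 libraries within the gene or 50 kb, where 78% of all protein-coding genes did. The windows together held 114 regions, 38 of them in all 3 libraries. They held 140, 388 and 202 footprints in replicates 1, 2 and 3, on average 243.3 ± 129.1 (SD, n = 3). Merged as in the locus, the footprints gave 71 shared by all 3 libraries, and 135 by replicates 2 and 3 when replicate 1 was left out. Of the shared regions, 5 lay at a TSS of these genes, 20 at the TSS of another gene only, and 13 away from any TSS. Of the 13, 2 lay inside a carbonic anhydrase gene, with their middle in introns of Car3 and Car8. The median gene had 2.69 shared regions per 100 kb, against 1.98 over all protein-coding genes.

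Car9 and Car14 had the densest surroundings, with most of the shared regions at TSSs of other genes. The window of Car9 held 11 shared regions, a density above that of 97.1% of genes, of which 6 lay at TSSs of other genes, 5 away from TSSs and none at its own. The promoter of Gm12454, whose promoter window overlaps that of Car9, held a shared region inside the Car9 gene with signals of 1.02, 1.83 and 0.962. Outside TSSs, the region at chr4:43478241-43478440, 28625 bp upstream of Car9, had signals of 2.06, 4.43 and 3.59. Another, at chr4:43520021-43520240 in an intron of the tropomyosin gene Tpm2, had 2.13, 1.85 and 1.06. The window of Car14 held 8, above 91.7% of genes, with 7 at TSSs of other genes. Its remaining region, at chr3:95950741-95951400 and 46380 bp upstream of Car14, had signals of 2.52, 6.02 and 2.14, and held 4 footprints shared by all libraries.

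The other windows were sparser. Car4 had 3 shared regions, 1 at the TSS of Znhit3 and 2 between genes. The stronger of these, at chr11:84918541-84918740 and 39147 bp upstream of Car4, had signals of 3.49, 5.08 and 2.14, which placed it above 84.9%, 92.9% and 78.0% of the library's peaks. The weaker, at chr11:84944021-84944240, had signals of 0.918, 0.837 and 0.498. Car8 had 1 shared region, in its own intron at chr4:8200258-8200460, 38682 bp downstream of the TSS, with signals of 0.448, 0.587 and 0.692. Car12 had 4, among them a region 7702 bp upstream, at chr9:66705887-66706080, with signals of 0.896, 0.966 and 0.581. Car5b had 5, with 1 away from TSSs at chrX:164066301-164066480, whose signals were 0.649, 0.556 and 0.644. Car1 had its promoter region only. These distances say nothing of which gene a region acts on.

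**Figure D5:**
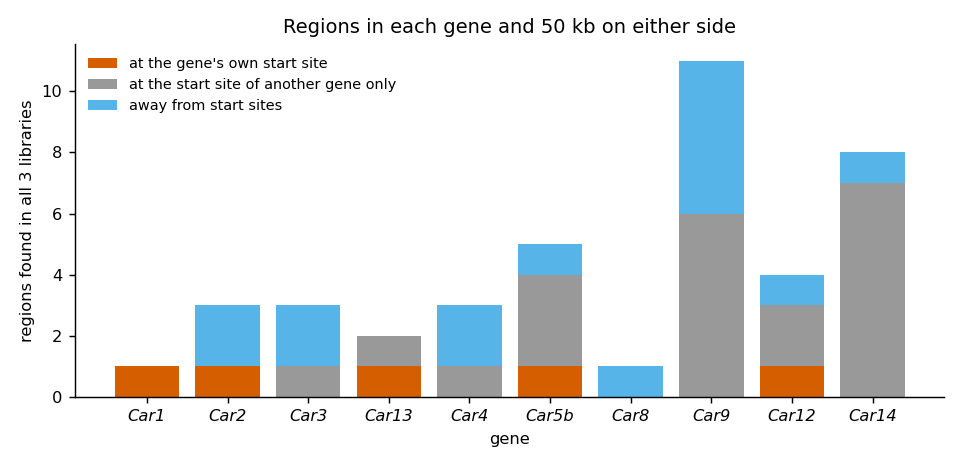
Number of regions found in all 3 libraries (vertical axis) in each gene and 50 kb on either side, split by whether the region lies at the gene's own start site, at that of another gene only, or away from start sites; windows of neighbouring genes overlap, so Car2 and Car3 share regions. Car9 has 11 and Car14 has 8, none at their own start sites.

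The remaining carbonic anhydrases of the annotation and the genes that move bicarbonate and carbon dioxide were read in the same way. Of Car5a, Car6, Car7, Car10, Car11 and Car15, 1 gene, Car7, had a promoter peak in all 3 libraries, with signals of 4.70, 10.2 and 4.59 and a mean percentile of 79.9 ± 6.89 (SD, n = 3). The promoter window of Car7 overlaps that of Nae1, so the site cannot be assigned to Car7 alone. Car10 and Car11 had a peak in replicate 2 alone. Of 17 transport genes, 8, 13 and 10 had a peak at the promoter in replicates 1, 2 and 3, and 7 in all 3, against 51.4% of all genes. Among those with the highest values, Slc26a6, an anion exchanger, stood at a mean percentile of 76.8 ± 2.68 (SD, n = 3). Slc4a1, which encodes band 3, the partner of red cell carbonic anhydrase in moving bicarbonate, had signals of 1.65, 8.78 and 8.83 and a mean percentile of 73.9 ± 12.6 (SD, n = 3). The means of Slc4a1 and Car2 lay within the spread between libraries, and both were lowest in replicate 1. Slc4a5, Slc4a10, Slc26a3 and Rhcg, the lowest, had no peak in any library.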

How the data were processed

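DNase-seq libraries of embryonic liver, 3 in 1 group, were analysed from the files that the authors deposited. Per the file headers and the text listing of each library, peaks, footprints and false discovery rates were derived from the alignments of that library alone, and no source used here names the caller. The peak signal is the deposited signal column, scaled per library. Signals below 2 came in whole steps of 0.0112, 0.00347 and 0.00692 in replicates 1, 2 and 3 (within 0.02 steps), which were not turned into counts. The deposited false discovery rate files hold adjusted p-values (q-values) and list positions of at most 0.05. Of the 2 deposited peak lists per library the longer was used. Footprints carry no score. Build mm10, per the labels, was matched to GRCm38 and the GENCODE M21 basic annotation. Percentiles, merging and motif counts were computed with numpy 2.4.6, pandas 2.3.3 and pysam 0.24.0. Overlaps, promoter signals and merging were tested on simulated data, and percentiles and motif counts were not. Percentiles among the peaks of a library come from lists of different lengths, so a difference between libraries shows no change. All 10 genes are named, the other genes by fixed rules, and 1 transport gene that the rule names is not reported here. The genes and lists were chosen with earlier results of these data known. The distant region upstream of Car2 was chosen after its values were seen. Alternatives were the shorter list, equal numbers of the strongest peaks, other windows, other overlaps and each library left out.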

Additional observations from a re-analysis of the deposited data

How the results depend on the processing

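No paired analysis was possible because the libraries form 1 group. Of the 10 genes, the shorter peak list left 3 with a promoter peak in all 3 libraries (Car2, Car13 and Car5b) and a median percentile of 23.2, and equal numbers of the strongest peaks left the same 3 and 15.8. The corresponding shares of all protein-coding genes were 46.7% and 47.5%. Leaving out a library in turn gave 5 to 6 such genes and medians of 33.5 to 46.1, where 51.4% to 55.9% of all genes had such a peak. Windows of 2500 bp added Car9 and Car14, 7 of 10 against 53.5% of all genes. For Car9 the wider window took in the shared region 1815 bp downstream of its TSS, which lies at the promoter of Gm12454. In the chromosome 3 locus the shared regions numbered 6 to 11 and the shared footprints 11 to 25 when a library was left out, and in all windows 39 to 53 and 75 to 135. The highest count came each time without replicate 1. Flanks of 20 kb, flanks of 100 kb and gene bodies alone gave 21, 58 and 8 shared regions and 30, 116 and 5 shared footprints in all windows. In the locus, flanks of 20 kb left 7 footprints and gene bodies alone 5. No footprint had an equal start and end in all 3 libraries, in the locus or in all windows, a count of 0 in both. Car1 stood at a mean percentile of 30.2 on the shorter list and 15.5 on equal numbers, and Car12 at 32.6 and 32.3. Ranked by the lowest false discovery rate, Car2 stood at 65.0, Car13 at 71.3 and Car5b at 75.4, so that Car2 was no longer above the others. Whether the shorter list is the stricter is not stated in the sources used. The depth of each library is unknown, and weak sites seen in 1 library may be below what the others could show.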
